A study of Arabidopsis thaliana with 8 samples.

Results

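The expansin and xyloglucan endotransglucosylase/hydrolase (XTH) genes of this report are 42 cell wall loci chosen by name from 24492 in an RNA-seq table. They are 14 alpha-expansins (EXPA), 4 expansin-like genes (EXLA and EXLB) and 24 XTH genes. These are part of their families and were chosen with earlier results of these data known. A further 18 expansins and 9 XTH genes were left out and are treated separately below. The table compares *kaku4* with wild-type (WT, labelled col) Arabidopsis, using rosette leaves at 6 weeks with 3 libraries per genotype. The mutant is 1 T-DNA insertion line in *KAKU4*, a component of the plant nuclear lamina, labelled kaku4-2 in the sample records and *kaku4* in the study's text, and the study describes its leaves as smaller than those of WT and yellowing early. Nothing in the labels says how many plants entered a library or whether libraries came from separate growths, so p-values measure the spread between these libraries only. Of the 42 genes, 40 had values (*XTH1* and *XTH21* had none) and 38 passed the minimum of a mean of 0.1 FPKM (fragments per kilobase of transcript and per library size). *EXPA2* and *XTH20* did not, with at most 0.14 and 0.085 FPKM in any library.

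Growing plant cells are held by a wall of cellulose microfibrils tied together by xyloglucan and embedded in pectin. Expansins are secreted proteins that loosen contacts between cellulose and xyloglucan without cutting either, and they act best in an acidified wall, which plasma membrane proton pumps provide. The EXLA and EXLB proteins share the fold of expansins, but a loosening activity has not been assigned to them. XTH enzymes cut a xyloglucan chain and join its end to another chain, or in a few cases to water, so they either remodel or shorten the tethers. Group numbers below follow the usual division of the family, in which group 3 holds the enzymes known for hydrolysis, such as XTH31, beside transferases such as XTH27.

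The catalytic stretch of an XTH is encoded by 18 bases that hold the codons of the nucleophile and the acid/base glutamate. The stretch is shown because it is what all 24 XTH genes have in common, whichever way their transcripts moved. Below it is printed 5′ to 3′ from the RefSeq genome TAIR10.1, with the 2 glutamate codons in capitals.
XTH4, chr2:2764493-2764510, plus strand: gacGAGatagactttGAG
XTH9, chr4:1416538-1416555, plus strand: aacGAAttcgattttGAG
XTH17, chr1:24257682-24257699, plus strand: gatGAGatcgatttcGAG
XTH22, chr5:23307848-23307865, minus strand: gacGAGatagatttcGAG
XTH23, chr4:13129072-13129089, plus strand: gacGAGattgactttGAG
XTH31, chr3:16447891-16447908, minus strand: gatGAGgtcgatatcGAG
The stretch was found in each of the 24 genes, although that of *XTH9* begins with an asparagine codon in place of aspartate and was found only after the search had been widened to allow it. *XTH22* and *XTH23* encode the same residues here, and over the whole coding sequence they were each other's nearest member, with 80.9% identity over 849 aligned bases.

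*KAKU4* itself stood at 6.41, 5.45 and 5.71 FPKM in WT and at 0.739, 1.26 and 0.943 FPKM in *kaku4*, 16.8% of WT. Libraries differed in ways the genotype label does not name. Long transcripts gained on short ones in *kaku4*: the median deviation of the longest 10% of genes minus that of the shortest 10% lay between -1.08 and -0.89 on the log2 scale in WT and at 0.42, 1.64 and 0.98 in *kaku4* replicates 1, 2 and 3. Summed FPKM was 1412230 to 1559940 in WT and 953041 to 1188690 in *kaku4*, and replicate 1 of each genotype stood apart by chloroplast genes, with 44363 and 30587 FPKM against 499 to 945 in the other libraries. The leaf marker *RBCS1A* lay between 12434 and 18347 FPKM in all 6 libraries, while *LHCB1.3* was listed at 0 in 5 of them and at 40368 in *kaku4* replicate 2. The other leaf markers went apart, with *GLDP1* at 263% of WT and called upregulated, *RCA* at 164% and higher, and *LHCB2.1* at 74.0% with no call. With the length trend removed, as described below, *GLDP1* stood at 0.35, *RCA* at 0.50 and *RBCS1A* at 0.68 on the log2 scale. These passed the limma test as higher (adjusted p = 0.031, 0.0327 and 0.0219) without a call, and *LHCB2.1* stood at -0.15. Root hair markers summed to at most 0.0989 FPKM. Floral organ markers summed to 1.75, 2.04 and 1.53 FPKM in WT and to 0.367, 0.508 and 0.333 in *kaku4*, with 3 of 4 called lower and none at 0 throughout. Their part in the results below was not tested. In whole leaves, fewer cells of a type and less RNA per cell cannot be told apart.

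Compared to WT, most of the listed expansin and XTH transcripts were lower in *kaku4*. The question put by the comparison was how leaf gene expression differs when *KAKU4* is reduced. Of the 38 genes tested, 18 were called downregulated, against 11.5% of all 20618 genes tested, and 1 was called upregulated, *XTH23*, against 16.4%. Because the members were chosen with earlier results known, these counts describe the list and not the whole families. Among the genes left out, 2 of 3 XTH genes tested and 1 of 5 expansins tested were called upregulated, and none downregulated. A call needed a difference of 1 or more in size on the log2(FPKM + 0.1) scale, which understates changes of low genes, together with an adjusted p no larger than 0.05 in limma. Without the fold change threshold, 31 were lower (28.3% of all genes) and 1 was higher (28.6%). In 32 genes all *kaku4* libraries lay below all WT libraries (31.3%), and in 1 all lay above (33.5%). The median log2 fold change was -0.96 over the 38 genes and 0.0021 over all genes. It hardly followed the WT level (Spearman rho -0.03) or the transcript length (rho 0.11) among the 38, a description over genes that share the 6 libraries, whereas over the 20464 genes with a length rho with length was 0.59. The 38 transcripts are 989 to 1922 bases long.

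Because length separated the libraries, the comparison of each gene was repeated after a lowess trend on transcript length had been taken out of each library. Such a step also removes true change that follows length. The sums over listed genes given below were not corrected for length. With the trend removed, the median of the 38 genes moved to -0.65, with all genes at -0.0082. Of the 18 genes, 8 kept the call (5.21% of all genes downregulated), namely *EXPA11*, *EXPA14*, *EXLA1*, *EXLA3*, *XTH4*, *XTH6*, *XTH17* and *XTH31*. *XTH23* remained upregulated (7.77%). Without the fold change threshold, an alternative chosen after seeing the data, 27 genes were lower (20% of all genes) and 4 were higher (20.2%), *XTH23*, *XTH24*, *XTH25* and *EXLB1*.

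**Figure D1:**
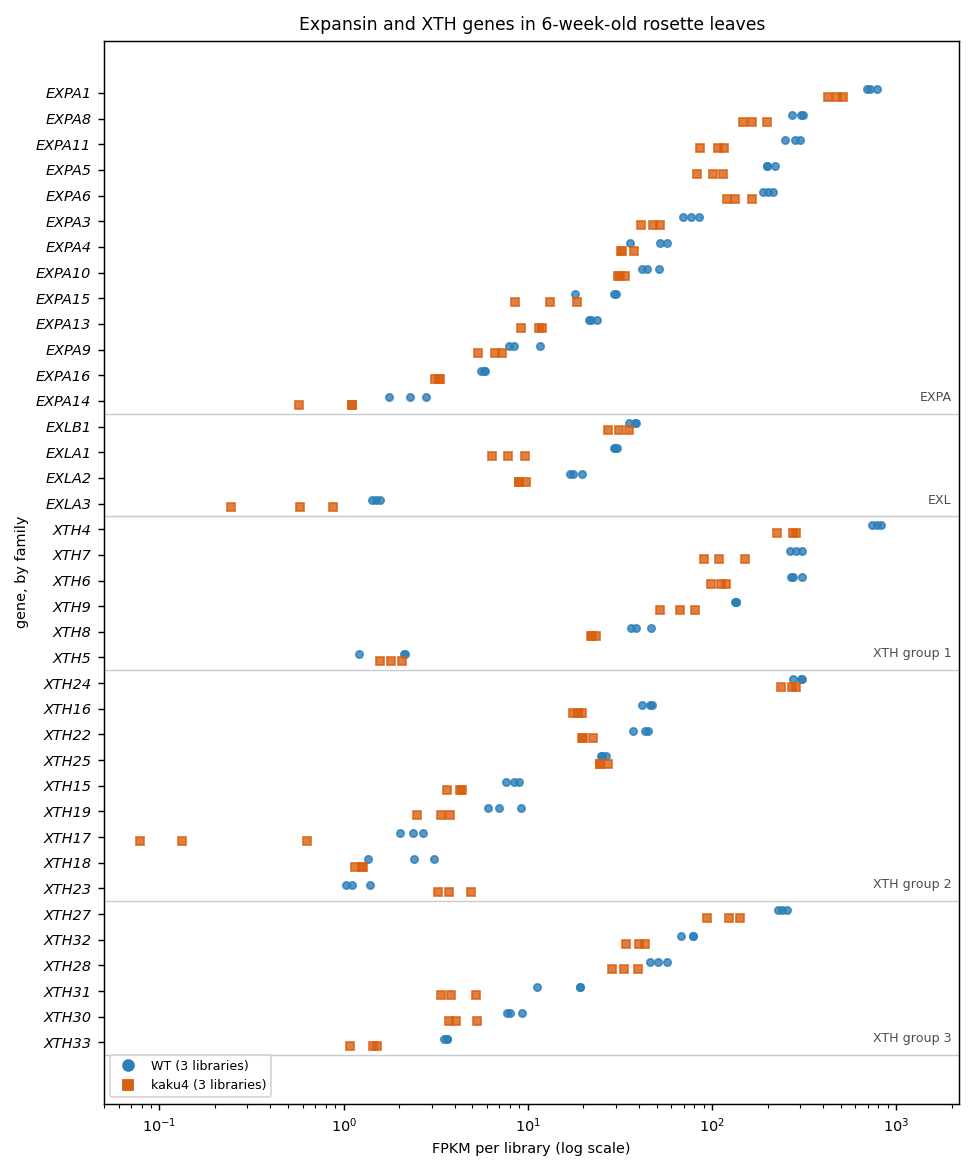
FPKM of the 38 tested expansin and XTH genes in each library on a log axis, by family and ordered by WT mean, with circles for the 3 WT and squares for the 3 *kaku4* libraries. In 32 genes the squares all lie left of the circles, and *XTH23* is the gene with all squares to the right.

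Alpha-expansins made up the larger part of the expansin signal. All 13 listed genes tested had a log2 fold change below 0, against 10296 of all 20618 genes. At an adjusted p of at most 0.05, 12 were lower (28.3% of all genes). Of these, 4 were called downregulated (11.5%), and the median of the 13 was -0.79. Summed over the 14 listed EXPA genes, transcripts stood at 1865, 1897 and 2079 FPKM in WT and at 1247, 998 and 1153 in *kaku4*. The *kaku4* mean was 58.2% of the WT mean, and the genotypes did not overlap, for which the exact permutation test of 3 against 3 libraries gives a two-sided p of 0.1, the smallest it can give. Rescaled to an equal nuclear FPKM total in each library, the *kaku4* sum was 82.8% of WT, again without overlap.

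*EXPA11* fell furthest among the abundant ones. It had 247, 283 and 300.1 FPKM in WT and 107, 85.9 and 115 in *kaku4* (log2 fold change -1.43, SE 0.15, adjusted p = 0.000327 in limma). *EXPA5*, an expansin raised by brassinosteroid, had 199, 199 and 218 FPKM in WT and 114, 82.5 and 101 in *kaku4* (log2 fold change -1.06, SE 0.15, adjusted p = 0.000753). *EXPA13* had 21.6, 21.9 and 23.7 FPKM in WT and 9.17, 11.9 and 11.5 in *kaku4* (log2 fold change -1.05, SE 0.14, adjusted p = 0.000698). In each of these the highest *kaku4* library was well under the lowest WT library. *EXPA14* was far scarcer, with 1.77, 2.79 and 2.28 FPKM in WT and 0.572, 1.11 and 1.11 in *kaku4* (log2 fold change -1.24, SE 0.30, adjusted p = 0.00842). Once the length trend was out, these 4 stood at -1.06, -0.80, -0.80 and -1.06 on the log2 scale, so *EXPA5* and *EXPA13* were lower but no longer called.

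The other listed alpha-expansins that were tested had log2 fold changes between -1 and 0. *EXPA1*, the most abundant expansin and one known from guard cells, had 689.8, 722 and 781 FPKM in WT and 514, 425 and 479 in *kaku4* (log2 fold change -0.63, SE 0.15, adjusted p = 0.00637), and its fold change was 0.08 under quantile normalization. *EXPA8* had 303, 273 and 313 FPKM in WT and 199, 146 and 165 in *kaku4* (log2 fold change -0.81, SE 0.15, adjusted p = 0.00242). *EXPA6* had 214, 189 and 201 FPKM in WT and 165, 120.4 and 134 in *kaku4* (log2 fold change -0.54, SE 0.15, adjusted p = 0.0146), with 0.0069 under quantile normalization. These 3 genes did not overlap between genotypes. *EXPA3* had 76.4, 69.3 and 85.1 FPKM in WT and 52.3, 41.0 and 47.7 in *kaku4* (log2 fold change -0.71, SE 0.14, adjusted p = 0.00303). *EXPA10*, required for full growth of leaves and petioles, had 44.4, 41.9 and 51.3 FPKM in WT and 33.5, 31.003 and 31.8 in *kaku4* (log2 fold change -0.51, SE 0.12, adjusted p = 0.00801), and stood at 0.0032 when libraries were rescaled to an equal nuclear total. Both were lower in every *kaku4* library. *EXPA4*, by contrast, overlapped, with 35.8, 51.8 and 56.6 FPKM in WT and 32.6, 32.0 and 37.7 in *kaku4* (log2 fold change -0.47, SE 0.18, adjusted p = 0.0534). *EXPA15* overlapped too, since WT replicate 1 was low, with 18.1, 29.2 and 30.1 FPKM in WT and 8.53, 13.2 and 18.5 in *kaku4* (log2 fold change -0.97, SE 0.30, adjusted p = 0.0222). Of the scarcer genes, *EXPA9* and *EXPA16* were lower with means of 68.6% and 57% of WT, but *EXPA9* did not pass the test after removal of the length trend (adjusted p = 0.398), nor did *EXPA15* (adjusted p = 0.0994).

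Among the expansin-like genes the response was uneven. *EXLA1* (AT3G45970, chromosome 3, 16896166 to 16897308 on TAIR10.1, 3 exons) had 29.4, 29.9 and 30.3 FPKM in WT and 9.70, 6.35 and 7.75 in *kaku4* (log2 fold change -1.92, SE 0.17, adjusted p = 0.000172), and the highest *kaku4* library was under a WT range of 29.4 to 30.3 FPKM. Of its 1065 exon bases 22 overlap a gene on the opposite strand, and no source used here gives the strandedness of the counting. *EXLA2* had 17.6, 16.8 and 19.6 FPKM in WT and 8.99, 8.99 and 9.80 in *kaku4* (log2 fold change -0.95, SE 0.13, adjusted p = 0.000677). *EXLA3*, which lies 2012 bases from *EXLA1* and is 86.6% identical to it in coding sequence, had 1.57, 1.502 and 1.43 FPKM in WT and 0.877, 0.246 and 0.579 in *kaku4* (log2 fold change -1.39, SE 0.38, adjusted p = 0.0141). All 3 EXLA genes were lower in each *kaku4* library (31.3% of all genes), although reads may be split between such close copies. *EXLB1* had 38.4, 35.5 and 38.4 FPKM in WT and 35.5, 27.2 and 31.1 in *kaku4* (log2 fold change -0.27, SE 0.13, adjusted p = 0.118), so its *kaku4* values reached almost to the lowest WT library and the difference did not pass the test. With the length trend removed, *EXLA1* fell by 1.24 and *EXLA2* by 0.39, while *EXLB1* stood at 0.30 (adjusted p = 0.0327).

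**Figure D2:**
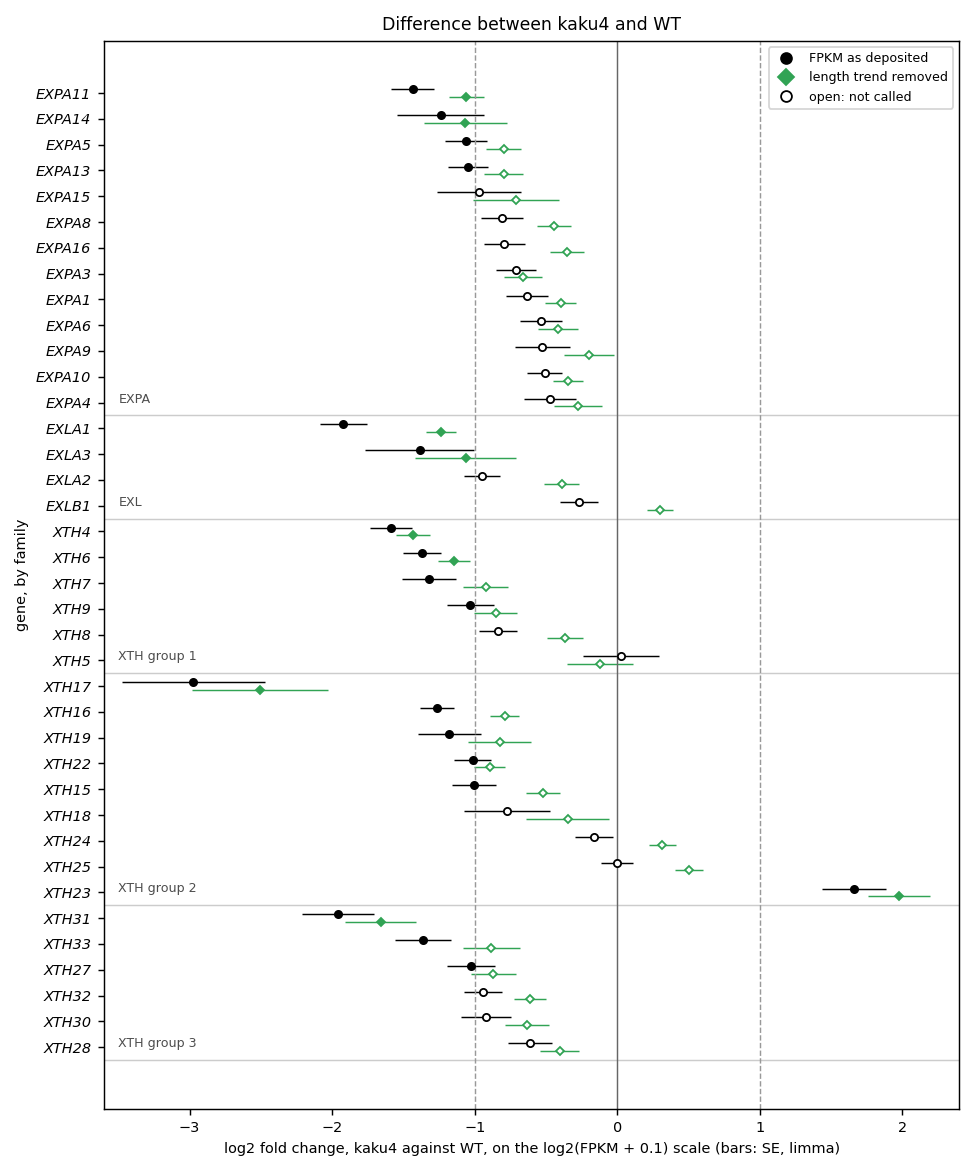
Log2 fold change of *kaku4* against WT for the 38 genes, by family, with bars for the SE from limma, as deposited (circles) and with the transcript length trend removed (diamonds), filled where the gene was called. Nearly all diamonds lie to the right of their circles, and *XTH23* lies apart at 1.66 and 1.98.

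In WT, the 22 listed XTH genes with values summed to 2353, 2352 and 2363 FPKM. In *kaku4* they summed to 1248, 969.8 and 1154 FPKM, a mean of 47.7% of WT. *XTH10* and *XTH11*, both higher in *kaku4* and given below, were not in this sum. The 3 WT libraries were close to each other, and each *kaku4* library was far below them. Rescaled to an equal nuclear total, the *kaku4* sum stood at 67.8% of WT. Neither measure overlapped between genotypes (exact permutation p = 0.1, two-sided). The expansin-like sum was 56.5% of WT and 80.3% after rescaling. Of the 21 listed XTH genes tested, 12 were called downregulated (11.5% of all genes) and 1 upregulated (16.4%). At an adjusted p of at most 0.05 without the fold change threshold, 16 were lower (28.3%).

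**Figure D3:**
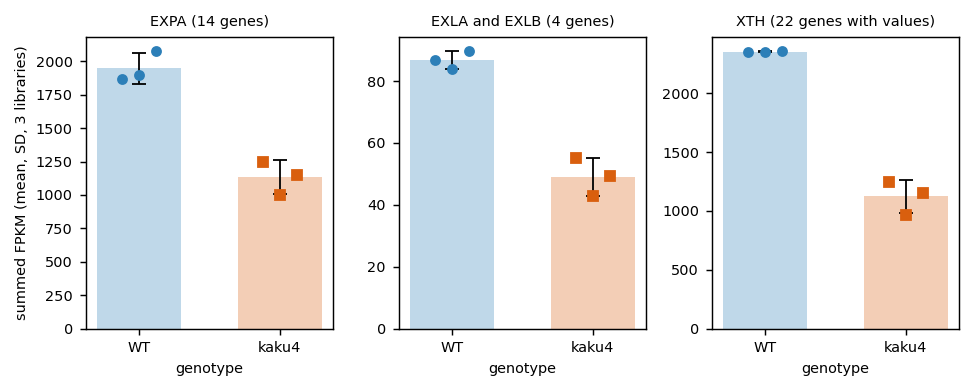
Summed FPKM per library of the listed EXPA, EXLA and EXLB, and XTH genes. Points show libraries, bars the mean of 3 libraries and error bars the SD. The *kaku4* means are 58.2%, 56.5% and 47.7% of the WT means, and no panel shows overlap between the genotypes.

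Group 1 held the most abundant XTH. *XTH4* (AT2G06850, chromosome 2, 2763449 to 2765743 on TAIR10.1, 4 exons), which acts in the walls of xylem and fibre cells, had 739, 790.1 and 823 FPKM in WT and 284, 226 and 275 in *kaku4* (log2 fold change -1.59, SE 0.15, adjusted p = 0.000207). It had the largest drop in FPKM of the 38 genes, from a mean of 784 to 262. *XTH6* had 307, 276 and 268 FPKM in WT and 119, 98.2 and 112 in *kaku4* (log2 fold change -1.37, SE 0.13, adjusted p = 0.000234). *XTH7*, its nearest member with 73.1% identity, had 309, 264 and 287 FPKM in WT and 151, 90.8 and 109 in *kaku4* (log2 fold change -1.32, SE 0.19, adjusted p = 0.000864). The WT libraries of both lay between 263.8 and 309 FPKM, and none of their *kaku4* libraries passed 151 FPKM. *XTH9* had 134, 135 and 134 FPKM in WT and 81.1, 52.3 and 66.8 in *kaku4* (log2 fold change -1.03, SE 0.17, adjusted p = 0.00129), with *kaku4* replicate 2 the lowest. *XTH8* had 36.5, 38.6 and 46.6 FPKM in WT and 21.9, 22.3 and 23.4 in *kaku4* (log2 fold change -0.84, SE 0.13, adjusted p = 0.00119), and *XTH5* did not differ beyond its spread, with 1.83 ± 0.54 FPKM in WT and 1.82 ± 0.25 in *kaku4* (SD, n = 3). Without the length trend *XTH4* fell by 1.43 and *XTH6* by 1.15, *XTH7* by 0.92 and *XTH9* by 0.85, whereas *XTH8* stood at -0.36 and did not pass the test (adjusted p = 0.0517).

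Group 2 went both ways. *XTH17* (AT1G65310, chromosome 1, 24257054 to 24258506 on TAIR10.1, 3 exons), known mainly from roots, had 2.37, 2.03 and 2.69 FPKM in WT and 0.632, 0.133 and 0.0781 in *kaku4* (log2 fold change -2.97, SE 0.50, adjusted p = 0.00158). Its log2 fold change ran from -3.59 without *kaku4* replicate 1 to -1.41 with a pseudocount of 1, at levels near 0 in *kaku4*. Its coding sequence is 92.2% identical to that of *XTH18*, which had 2.28 ± 0.88 FPKM in WT and 1.22 ± 0.06 in *kaku4* (SD, n = 3; adjusted p = 0.0543 in limma), and *XTH19*, 89.2% identical to *XTH18*, had 6.07, 9.22 and 6.95 FPKM in WT and 2.49, 3.37 and 3.80 in *kaku4* (log2 fold change -1.18, SE 0.22, adjusted p = 0.00252). How the counting divided reads among these 3 copies was not tested. *XTH16* had 41.4, 46.2 and 47.3 FPKM in WT and 18.8, 17.6 and 19.7 in *kaku4* (log2 fold change -1.26, SE 0.12, adjusted p = 0.000226). *XTH15*, whose transcript is raised in shade, had 8.43, 7.59 and 8.999 FPKM in WT and 4.39, 3.64 and 4.29 in *kaku4* (log2 fold change -1.01, SE 0.15, adjusted p = 0.00106). Both were lower in each *kaku4* library, but 382 of the 1207 exon bases of *XTH15* overlap a gene on the opposite strand.

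The pair *XTH22* and *XTH23* moved apart. *XTH22*, first known as the touch gene *TCH4*, had 37.3, 45.1 and 43.2 FPKM in WT and 19.9, 19.6 and 22.4 in *kaku4* (log2 fold change -1.01, SE 0.13, adjusted p = 0.000555). *XTH23* (AT4G25810, chromosome 4, 13128394 to 13129927 on TAIR10.1, 3 exons) had 1.11, 1.38 and 1.02 FPKM in WT and 3.24, 4.89 and 3.71 in *kaku4* (log2 fold change 1.66, SE 0.22, adjusted p = 0.000701), so each *kaku4* library was above each WT library. The 2 genes stood on different levels, with a WT mean of 41.9 FPKM for *XTH22* and 1.17 for *XTH23*, and in *kaku4* the means were 20.7 and 3.95. *XTH25*, which lies 565 bases from *XTH22*, had 25.3, 24.8 and 26.5 FPKM in WT and 27.3, 24.7 and 24.6 in *kaku4* (log2 fold change -0.0013, SE 0.11, adjusted p = 0.993), and its genotypes overlapped. *XTH24*, the most abundant of group 2, had 308, 303 and 276 FPKM in WT and 286, 238 and 269.8 in *kaku4* (log2 fold change -0.16, SE 0.13, adjusted p = 0.322), and overlapped as well. Removing the length trend put *XTH22* at -0.89, *XTH23* at 1.98, *XTH24* at 0.32 (adjusted p = 0.0333) and *XTH25* at 0.50 (adjusted p = 0.00514), so the last 2 then passed the test as higher.

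The 300 bases upstream of the annotated gene start are given for *XTH22* and *XTH23*, the pair with similar coding sequence and opposite difference, 5′ to 3′ on the strand of the gene in TAIR10.1.
XTH22, chr5:23308681-23308980, minus strand: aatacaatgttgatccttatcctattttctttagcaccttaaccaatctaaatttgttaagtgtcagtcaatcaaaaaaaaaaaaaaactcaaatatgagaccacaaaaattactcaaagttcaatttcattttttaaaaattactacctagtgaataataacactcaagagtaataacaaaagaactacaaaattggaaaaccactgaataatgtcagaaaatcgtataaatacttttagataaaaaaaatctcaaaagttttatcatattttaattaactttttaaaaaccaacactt
XTH23, chr4:13128094-13128393, plus strand: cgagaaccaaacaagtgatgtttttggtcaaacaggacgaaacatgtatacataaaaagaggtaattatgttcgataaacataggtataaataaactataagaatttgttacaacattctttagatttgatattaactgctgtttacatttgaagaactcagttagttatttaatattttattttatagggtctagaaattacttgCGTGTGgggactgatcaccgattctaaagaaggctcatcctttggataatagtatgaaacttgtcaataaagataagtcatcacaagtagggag
Capitals mark CGTGTG, 1 of 3 six-base words searched on both strands, the others being CACGTG, bound by PIF factors, and CGTGCG, which with CGTGTG is bound by BZR1. CGTGTG lay 89 bases before the start of *XTH23*, and none of the 3 words was in the window of *XTH22*. Among the 42 genes 7 windows held CGTGTG (16.7%, against 6.11% of 27443 windows of the same length), 1 held CACGTG (2.38%, against 7.09%) and none held CGTGCG (1.78%). At least 1 of the 3 words was in 7 windows (16.7%, against 12.9%). The 7 genes were *EXPA1*, *EXPA2*, *EXPA6*, *EXLA2*, *XTH8*, *XTH23* and *XTH25*, of which *XTH23* was called and *EXPA2* was not tested. *EXPA1*, *EXPA6*, *EXLA2* and *XTH8* were lower without a call, and *XTH25* did not pass the test.

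In group 3 all 6 listed genes were lower in every *kaku4* library (31.3% of all genes). All 6 passed the test (28.3%), 3 of them with a call (11.5%). *XTH31* (AT3G44990, chromosome 3, 16446935 to 16448844 on TAIR10.1, 4 exons), an enzyme known for xyloglucan hydrolysis in roots, had 11.3, 19.2 and 19.3 FPKM in WT and 3.35, 3.83 and 5.24 in *kaku4* (log2 fold change -1.96, SE 0.25, adjusted p = 0.0006). WT replicate 1 was the lowest of its WT libraries, yet above the highest *kaku4* library. *XTH27*, which acts in the tracheary elements of small leaf veins, had 255, 238 and 228 FPKM in WT and 142, 93.5 and 123 in *kaku4* (log2 fold change -1.03, SE 0.17, adjusted p = 0.00139). *XTH33*, which is held at the plasma membrane, had 3.63, 3.51 and 3.62 FPKM in WT and 1.08, 1.51 and 1.45 in *kaku4* (log2 fold change -1.36, SE 0.20, adjusted p = 0.000892). Among the 3 that were not called, *XTH32* had 67.8, 79.1 and 78.7 FPKM in WT and 40.2, 34.1 and 43.3 in *kaku4* (log2 fold change -0.94, SE 0.14, adjusted p = 0.000878). *XTH28* had 45.8, 57.1 and 51.1 FPKM in WT and 33.2, 28.5 and 39.5 in *kaku4* (log2 fold change -0.61, SE 0.15, adjusted p = 0.00977), and *XTH30* was at 52.6% of WT. Without the length trend *XTH31* fell by 1.66, *XTH27* by 0.87 and *XTH33* by 0.88, and *XTH28* missed the test (adjusted p = 0.0502).

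Only *EXLA1*, *XTH17* and *XTH31* among the genes called downregulated, and *XTH23* among those upregulated, kept their call under each of the 18 alternatives set for this comparison. Single libraries decided calls near the threshold of 1. Without *kaku4* replicate 2, the library with the strongest length trend, 12 genes were called downregulated, while calls over all genes went from 2371 to 1616. *EXPA5*, *EXLA3*, *XTH9*, *XTH15*, *XTH22* and *XTH27* then lost the call. Leaving out *kaku4* replicate 1 removed the calls of *EXPA13*, *EXPA14* and *XTH22*. WT replicate 1 was needed for *XTH15* and *XTH27*, WT replicate 2 for *XTH22*, and WT replicate 3 for *XTH15* and *XTH22*. With replicates 2 and 3 only, which leaves out both libraries rich in chloroplast transcripts, 18 were called, 17 of them among the same genes.

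Of the XTH genes outside the 42, a pair was higher in *kaku4*. *XTH10* had 4.90, 5.71 and 6.26 FPKM in WT and 30.1, 30.1 and 36.8 in *kaku4* (log2 fold change 2.50, SE 0.15, adjusted p = 3.45e-05 in limma). *XTH11*, at 0.285 to 0.362 FPKM in WT and 2.19, 2.29 and 2.50 in *kaku4*, rose by 2.55 on the log2 scale, or by 1.34 with a pseudocount of 1. Both genes kept their call under each of the 18 alternatives, and with *XTH29*, which did not pass the test, they were the 3 tested of 9 listed. Of 18 other expansins 5 were tested. *EXPB1* was lower, with 19.0 to 21.0 FPKM in WT and 10.8 to 14.3 in *kaku4*, and *EXPA17* was called higher at 0.165 to 0.613 FPKM in *kaku4*, a call lost with a pseudocount of 1 (0.44) and without WT replicate 1 or 3 or *kaku4* replicate 2 or 3 (adjusted p = 0.0571, 0.0676, 0.0776 and 0.0805). The root hair expansins *EXPA7* and *EXPA18* reached at most 0.0948 FPKM.

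Genes for the rest of the wall have longer transcripts, and their counts moved with the length trend. The shares over all genes were 28.6% higher and 16.4% called upregulated as deposited, and 20.2% higher and 20% lower with the trend removed. Of 9 genes for primary wall cellulose (median transcript 4138 bases), 8 passed the adjusted p threshold as higher and 1 was called, *CSI1*, which links cellulose synthase to microtubules. With the length trend removed none was higher and 4 were lower, *CESA2*, *CESA3*, *CESA5* and *CESA6*. Of 13 xyloglucan synthesis genes 4 were higher, with *CSLC6* called, and none was lower (28.3% of all genes). After removal of the trend none was higher and 3 were lower, with *CSLC8* called downregulated (5.21% of all genes). The 4 higher as deposited and the 3 lower after removal were close to the shares of all genes. The 1 upregulated call among 9 cellulose genes and the 1 among 13 synthesis genes were below the share of 16.4%. All 4 xyloglucan trimming genes were higher, and none was after removal. None of the 3 secondary wall cellulose synthase genes passed the test, and with the trend removed *CESA4* was called downregulated (5.21% of all genes). Of 8 plasma membrane proton pumps 6 were called upregulated (16.4% of all genes). *AHA1* had 27.6, 27.6 and 31.1 FPKM in WT and 83.2, 116 and 90.5 in *kaku4*, and without the length trend *AHA1*, *AHA2* and *AHA11* were higher by 0.59, 0.37 and 0.45 with none called.

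Of 12 regulators that act upstream of wall genes, 5 were higher and 4 lower as deposited (28.6% and 28.3% of all genes), and 1 was higher and 4 were lower with the length trend removed (20.2% and 20%). *PRE1*, which promotes elongation by binding inhibitory partners, had 83.0, 70.0 and 57.4 FPKM in WT and 28.0, 14.7 and 24.1 in *kaku4* (log2 fold change -1.69, SE 0.24, adjusted p = 0.000897 in limma). *PAR1*, an inhibitor of elongation, had 37.4, 39.1 and 42.6 FPKM in WT and 18.4, 13.7 and 18.3 in *kaku4* (log2 fold change -1.25, SE 0.15, adjusted p = 0.000472). Both were lower without the length trend, at -0.91 and -0.76. *BZR1*, a brassinosteroid-responsive transcription factor gene, was the one higher in both, at 0.38 and 0.44 (adjusted p = 0.0239 for the latter). *BES1* went the other way, at -0.30 as deposited (adjusted p = 0.0889) and -0.66 after removal (adjusted p = 0.00349). *PIF4* passed the test only after removal, as lower at -0.29 (adjusted p = 0.0394). *HBI1* and *IBH1* were lower as deposited, at -0.47 and -0.68, and did not pass the test after removal (adjusted p = 0.059 and 0.26). *PIF3* was called upregulated at 1.21, and it stood at 0.53 (adjusted p = 0.066) once the trend was removed. The brassinosteroid receptor gene *BRI1* was higher by 0.88 as deposited and stood at -0.32 after removal.

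**Figure D4:**
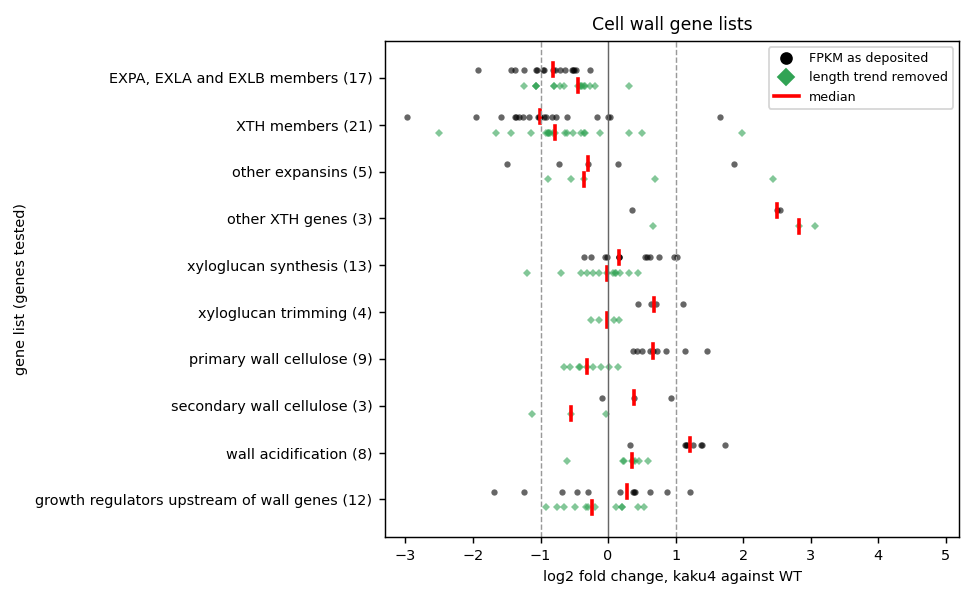
Log2 fold change of *kaku4* against WT for each tested gene of 10 groups, as deposited (circles) and with the transcript length trend removed (diamonds), with the median of each group as a vertical bar. The XTH genes keep a median below 0 in both (-1.01 and -0.79), whereas that of primary wall cellulose moves from 0.66 to -0.31.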

How the data were processed

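RNA was taken from 6-week-old rosette leaves, 3 libraries per genotype, and sequenced as 150-bp paired ends. The authors aligned reads to TAIR10 with TopHat2 2.0.9 and computed FPKM with Cufflinks at default parameters. The deposited values are FPKM per the file headers, recorded under another general unit because 1442 of 24492 loci carry a missing-value mark in all 6 libraries and were left out. Counts and depth per gene are unknown, so the spread between libraries is the only measure of precision.

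The members and lists were chosen with earlier results of these data known. The 42 loci may all be named, with values per library for those called or with a mean of at least 10 FPKM in either genotype, and other genes come from fixed lists of wall, regulator and marker genes or are *KAKU4*. With limma 3.58.1 in R 4.3.3, log2(FPKM + 0.1) was compared for 20618 genes whose mean reached 0.1 FPKM between genotypes, using a mean-variance trend and Benjamini-Hochberg adjustment over all of them. For transcript lengths, coordinates and sequences, loci were matched to RefSeq's TAIR10.1 models, while the authors used TAIR10. The length trend was a lowess curve with a span of 0.4 in each library, and 154 genes without a length were left as they were. The catalytic stretch was searched as aspartate or asparagine, glutamate, any residue, aspartate, any residue and glutamate, where the first position was widened after *XTH9* had not been found. Code was tested on simulated data, where the first bar for the share of changed genes called was not met, mostly for genes of low FPKM, and was replaced after this was seen, so a low gene without a call may have been missed. In all, 18 alternatives (pseudocount, minimum, scaling, length trend, replicate block, fold threshold, left-out libraries) were planned and 1 was added.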

Additional observations from a re-analysis of the deposited data

How the results depend on the processing

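Calls over all 20618 genes moved with the setting too, and their number follows in brackets. The 18 genes called downregulated (2371) became 11 with a pseudocount of 1 (1674) and 8 with the length trend removed (1075). Rescaling libraries to an equal nuclear total gave 4 (408). It moved the median of all genes to 0.47 and that of the 38 genes to -0.45. Without a fold change threshold there were 31 (5844). Centring libraries on their median moved the median of all genes to -0.19 and gave 24 (3846). Quantile normalization gave 12 (2060), and 9 of the 12 were among the 18. Leaving out each library in turn gave 12 to 20 (1616 to 2994). The 1 upregulated gene stayed the only one under all 18 alternatives, and one chosen after seeing the data, the length trend removed without a fold change threshold, gave 4 higher and 27 lower. *KAKU4* kept its call throughout. Same-numbered libraries correlated at 0.31, 0.08 and 0.0061 in their deviations, and not every library correlated best with its own number. Both replicate 1 libraries were rich in chloroplast transcripts, but the labels give no link between same-numbered libraries beyond the number. A replicate block left 18 genes downregulated (2481), and 8 with the length trend also removed (1100).

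Signs were followed across the settings for the tested expansin and XTH members. Other listed genes were followed only if their adjusted p was at most 0.05 as deposited. Among the genes followed, those below changed sign, including *CSI1*, called upregulated at 1.46 as deposited. With the length trend removed, with or without the replicate block, *EXLB1* stood at 0.30, *XTH5* at -0.12, *XTH24* at 0.32, *XTH25* at 0.50, *AXY8* at -0.25, *BGLC1* at -0.13, *CESA1* at -0.31, *CESA2* at -0.56, *CESA3* at -0.42, *CESA5* at -0.65, *CESA6* at -0.44, *KOR1* at -0.22, *CSI1* at -0.11 and *BRI1* at -0.32, also without the fold change threshold. After rescaling, *EXPA4* stood at 0.041, *EXPA10* at 0.0032, *EXLB1* at 0.25, *XTH24* at 0.35, *XTH25* at 0.51 and *HBI1* at 0.0457. Quantile normalization put *EXPA1* at 0.0834, *EXPA6* at 0.0069, *XTH5* at -0.36, *XTH24* at 0.50 and *XTH25* at 0.20. *XTH5* was -0.17 with centred libraries and -0.14 with replicates 2 and 3 only. Leaving out single libraries put *XTH5* between -0.23 and 0.16 and *XTH25* between -0.0504 and 0.0252. Listed genes that were not followed also changed sign with the length trend removed. *CSLC5* went from 0.16 to -0.70 (adjusted p = 0.0133 in limma after removal). *PIF4* went from 0.17 to -0.29 (adjusted p = 0.0394). *XXT5*, *CSLC12*, *CESA7*, *CESA8*, *AHA8* and *AP3* changed sign too, without passing the test before or after removal. The cause of the sign changes was not tested.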
